A study of Homo sapiens with 9 samples.

Results

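The guides described here are the 110 sgRNAs of a pooled screen that target the MARCH family of membrane ubiquitin ligases, out of 11170 guides in all. They were found by name, as every guide whose target gene begins with MARCH plus a digit, a rule that uses no measured value, although the family itself was picked with earlier results of these data known. The rule found 11 genes, MARCH1 to MARCH11, with 10 guides each, which were 0.985% of the guides of the library. All 11 names are older symbols, and each matched a single current symbol in RefSeq (GRCh38.p14), MARCHF1 to MARCHF11.

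MARCH proteins are RING-CH-type ubiquitin ligases. Most of them span a membrane and hold the RING-CH domain on the cytosolic side, where it passes ubiquitin from a conjugating enzyme to nearby membrane proteins, which are then internalised, sorted to lysosomes or taken out of the membrane and degraded by the proteasome. Family members differ in the membrane they occupy: MARCH1 and MARCH8 act on endosomes and the cell surface, MARCH2 and MARCH3 on endosomes, MARCH4 and MARCH9 in the Golgi region, MARCH5 on the outer mitochondrial membrane and MARCH6 in the endoplasmic reticulum. MARCH7 and MARCH10 lack clear transmembrane segments.

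The screen was made in U251, an established human glioma line, in cells that stably expressed sgRNAs and were cultured in DMEM with serum. Cells received temozolomide, a DNA-alkylating drug used against glioma, for 72 hours, and guides were counted by sequencing DNA. There were 3 groups, at 0, 200 and 1500 µM by the titles, each with 3 libraries numbered 1 to 3. The treatment text gives the doses in nM, so the unit is not settled and the titles' figures serve as group names. All groups carried the sgRNA library, and neither a plasmid pool nor a library from before treatment was analysed here. The labels do not say whether the numbers mark separate cultures, and the p-values measure no more than how these libraries vary, possibly for technical reasons.

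Total counts lay between 1852340 and 2790563 per library, or 166 to 250 counts per guide on average. Gene levels are given as the counts summed over a gene's 10 guides, and guide levels as single counts, both in CPM relative to a library total scaled by the trimmed mean of M values (TMM). TMM factors came from the summed genes for gene levels and from the guides for guide levels. A count of 0 allows up to 3 counts, or 1.06 to 1.83 CPM for a guide depending on the library. This floor covers counting error only. UBE2A.7, a guide against another gene, took 0.155% to 2.60% of the counts at 0 and 200 µM but 4.97% to 18.6% at 1500 µM, which lowers every other guide's share of an unscaled total.

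Without drug, MARCH guides held 0.754%, 1.05% and 0.988% of the counts in replicates 1, 2 and 3 (95% intervals by the exact Clopper-Pearson method, 0.742 to 0.767%, 1.03 to 1.06% and 0.974 to 1.002%). The shares were 0.717%, 0.990% and 0.942% at 200 µM, with intervals of 0.706 to 0.729%, 0.976 to 1.004% and 0.930 to 0.954%. They were 0.667%, 0.771% and 0.878% at 1500 µM, with intervals of 0.657 to 0.676%, 0.760 to 0.782% and 0.865 to 0.890%. The intervals cover counting error within a single library only. They leave out the spread between libraries of a dose, which was far wider, and so do not test a difference between doses. Within each replicate number the unscaled share was thus highest at 0 µM and lowest at 1500 µM, and the groups overlapped. On the scaled level of the summed genes, replicate 1 had 7803, 6918 and 6922 CPM at 0, 200 and 1500 µM, replicate 2 had 10365, 9520 and 8945 CPM, and replicate 3 had 9242, 9005 and 8567 CPM.

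No MARCH guide was at 0 in all 9 libraries, against 148 of all guides. Of the 110 guides, 105 had at least 10 counts in at least 3 libraries and were tested, or 95.5% against 92.5% of all guides. The 5 others were MARCH6.4, MARCH6.6, MARCH9.6, MARCH10.3 and MARCH10.6, none of which passed 41 counts in any library.

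Without drug, the summed MARCH levels were spread over the range of the other targets. MARCH1 was the highest at 1345 ± 723 CPM (SD, n = 3), above 88.3% of the 1117 target genes. It was followed by MARCH2 at 1084 ± 382, MARCH7 at 1029 ± 314 and MARCH8 at 890 ± 476 CPM. MARCH4, MARCH5 and MARCH11 lay near the median of all genes, 861 CPM, with 875 ± 111, 860 ± 100.5 and 825 ± 199.6 CPM. MARCH3 had 666 ± 574, MARCH10 567 ± 231 and MARCH6 539 ± 248 CPM. MARCH9 was the lowest at 457 ± 164 CPM, above 17.0% of genes. Neighbours in this order differed by less than their SDs.

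A few guides made up most of a gene's sum, and which ones depended on the replicate number. MARCH4.7 held 83.5% of the MARCH4 counts in replicate 2 at 0 µM but 17.3% in replicate 1 and 31.8% in replicate 3. MARCH11.7 held 68.7%, 15.1% and 13.7% in replicates 2, 1 and 3, and MARCH3.8 held 63.0%, 2.28% and 11.9%. The most abundant guide held between 20.5% and 37.7% of the counts for MARCH9 (MARCH9.1), between 13.4% and 38.3% for MARCH8 (MARCH8.7) and between 20.1% and 44.3% for MARCH2 (MARCH2.7). Within a replicate number the same guide was the most abundant at all 3 doses in 18 of 33 combinations of a gene and a number, or 54.5%, against 59.6% over all genes. Within a dose the same guide led in all 3 replicates in 1 of 33, or 3.03%, against 8.27% over all genes. Over the 105 tested MARCH guides, libraries with the same number correlated at 0.77 to 0.86 as log2(CPM + 1), and libraries of the same dose at 0.27 to 0.42. These values describe libraries that share a number or a dose and carry no p.

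No MARCH gene and no MARCH guide passed edgeR's quasi-likelihood test in any of the 3 pairs of doses, and neither did any other of the 1117 genes and 10337 guides, so the share called was 0% in each. At an unadjusted p under 0.05 there were 21 guides of all targets at 1500 against 0 µM, 14 at 200 against 0 µM and 21 at 1500 against 200 µM, or 0.203%, 0.135% and 0.203%, none of them a MARCH guide. For summed genes the counts were 3, 0 and 1, or 0.269%, 0% and 0.0895%, again without a MARCH gene. DESeq2 without a block called no MARCH gene or guide, where it called 0% of guides in each comparison and 0.0895%, 0% and 0.0895% of genes in the same order. It put 0.590%, 0.387% and 0.319% of guides and 0.358%, 0.269% and 0.179% of genes at an unadjusted p under 0.05, among them 1 MARCH guide, MARCH6.1, at 1500 against 0 µM. With the replicate number as a block, edgeR called 0.0895% of genes at 1500 against 0 µM, 0% in the other comparisons and 0% of guides, none from the family. DESeq2 with the block called 0.058% of guides in each comparison with 0 µM, and 0.269% of genes at 1500 µM and 0.0895% at 200 µM, again none from the family. At 1500 against 200 µM the same fit called 0.416% of guides and 2.15% of genes, among them MARCH6.1 and MARCH5. On simulated data the unblocked guide-level edgeR fit did not recover the changes put in, so its lack of guide calls says little about the guides. For genes the unblocked edgeR fit recovered 2.99%, 2.99% and 19.4% of 2-fold changes in the same order of comparisons. It recovered 82.1%, 70.1% and 91.0% of 4-fold changes. Its lack of gene calls thus says little about gene changes of 2-fold or less. The 3 comparisons share libraries with each other. Missing the threshold does not show that the levels were alike, and the values below carry their errors.

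MARCH1 and MARCH8 are close relatives that lower the surface level of immune receptors such as MHC class II and CD86, and MARCH8 also acts on the transferrin receptor. MARCH1 guides summed to 1268, 2104 and 663 CPM in replicates 1, 2 and 3 at 0 µM, to 696, 1800 and 485 CPM at 200 µM and to 804, 1583 and 402 CPM at 1500 µM. The groups overlapped because the replicates differed widely, but within each number both treated libraries were lower than the untreated one. The log2 ratio to 0 µM was -0.66, -0.41 and -0.72 at 1500 µM and -0.87, -0.22 and -0.45 at 200 µM.

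Without a block, MARCH1 had a log2 fold change of -0.53 ± 0.57 (SE, edgeR adjusted p = 1.00) at 1500 against 0 µM and of -0.45 ± 0.57 (SE, edgeR adjusted p = 0.998) at 200 against 0 µM. With the replicate number as a block the SE was smaller, with -0.59 ± 0.15 (edgeR unadjusted p = 0.00138, adjusted p = 0.307) and -0.53 ± 0.15 (edgeR unadjusted p = 0.00901, adjusted p = 0.811). The blocked test put MARCH1 and MARCH4 at an unadjusted p under 0.05 in the lower direction in both comparisons with 0 µM, 2 of 11 genes, against 3.76% of all genes at 1500 µM and 3.22% at 200 µM. Without replicate 2 at 0 µM the unblocked MARCH1 values became -0.0792 at 1500 µM and 0.0405 at 200 µM. Each of these fits kept replicate 2 of the treated group, the highest sum of its dose. The groups then no longer held the same replicate numbers.

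The MARCH1 guides went the same way at 200 µM. All 10 had a fold change below 0, with a median of -0.36 on the log2 scale (SD 0.60 over guides), and 3 of the 687 genes with 10 tested guides had all 10 below 0. These are values of the main fit with the TMM factors of the guides, where the median of all guides was -0.09. MARCH1.8 had 144, 1.44 and 58.6 CPM at 0 µM and 106, 8.81 and 84.6 CPM at 200 µM in replicates 1, 2 and 3. It was thus higher at 200 µM in replicates 2 and 3, and its place below 0 may depend on the scaling. In 7 of the 10 guides the level was lower at 200 than at 0 µM in each of the 3 same-numbered pairs. No other of 1117 genes had as many, a count that was 6 with RLE size factors (no other gene) and 4 with library totals or with the TMM factors of the summed genes (4 other genes each). At 1500 µM 9 of 10 guides lay below 0, with a median of -0.33, where 24 of the 687 genes, or 3.49%, had at least 9 below 0. Of these guides MARCH1.5 and MARCH1.6 were lower in all 3 pairs, a count that 357 other genes reached or passed, and MARCH1.10 was higher in all 3.

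MARCH1.5, the most abundant MARCH1 guide, had 34.1, 1153 and 279 CPM at 0 µM, 17.7, 1022 and 159 CPM at 200 µM and 26.6, 675 and 113 CPM at 1500 µM in replicates 1, 2 and 3. It was lower in every treated library than in its untreated counterpart. Summed without this guide, MARCH1 still had -0.48 at 1500 and -0.61 at 200 against 0 µM, neither past the threshold. MARCH1.5 held only 2.47% of the MARCH1 counts in replicate 1 at 0 µM, so leaving it out changes little in that replicate. MARCH1.7 stood apart from the others, with 743 CPM in replicate 1 at 0 µM, 0 in replicate 2 and 4.92 CPM in replicate 3. In replicate 1 it was at 174 CPM at 200 µM and 112 CPM at 1500 µM. There MARCH1.7 made up 1219 of 2270 MARCH1 counts at 0 µM, 395 of 1492 at 200 µM and 312 of 2160 at 1500 µM. The lower MARCH1 sums of replicate 1 under drug thus lean on this guide. The remaining MARCH1 counts of replicate 1, scaled as the gene levels, were higher at 1500 than at 0 µM and lower at 200 than at 0 µM. A sum without MARCH1.7 was not fitted.

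MARCH8 summed to 547, 689 and 1433 CPM at 0 µM, 751, 660 and 1487 CPM at 200 µM and 685, 640 and 1289 CPM at 1500 µM. Replicate 3 was the highest at every dose and the groups overlapped. At 1500 against 0 µM the fit gave -0.03 ± 0.45 on the log2 scale (SE, edgeR adjusted p = 1.00), and the sign turned with the block (0.0199 ± 0.17).

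MARCH2 and MARCH3, which share a similar build and act in endosomal sorting, showed no common direction. MARCH2 summed to 741, 1495 and 1017 CPM at 0 µM, 672, 1427 and 1183 CPM at 200 µM and 860, 1358 and 1095 CPM at 1500 µM. The groups overlapped almost fully, and the log2 value for 1500 against 0 µM came to 0.03 ± 0.35 (SE, edgeR adjusted p = 1.00), a sign that turned with library totals (-0.0870) and without MARCH2.7 (-0.0585). MARCH3 summed to 122, 1266 and 608 CPM at 0 µM, 163, 998 and 481 CPM at 200 µM and 145, 976 and 548 CPM at 1500 µM. Replicate 1 stood far below the others at each dose, and the log2 value for 1500 against 0 µM came to -0.25 ± 0.84 (SE, edgeR adjusted p = 1.00).

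MARCH4, MARCH9 and MARCH11 form a further subgroup, and MARCH4 and MARCH9 are known for lowering MHC class I at the surface when overexpressed. MARCH4 summed to 780, 997 and 849 CPM at 0 µM, 456, 865 and 659 CPM at 200 µM and 523, 830 and 647 CPM at 1500 µM. Replicates 1 and 3 of the treated groups lay below all untreated libraries, and replicate 2 of each treated group lay within the untreated range. The log2 ratio within a number was -0.58, -0.26 and -0.39 at 1500 µM and -0.78, -0.20 and -0.37 at 200 µM, lower in 3 of 3 pairs both times.

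MARCH4 had the lowest p of the 11 genes in the unblocked test against 0 µM, with -0.39 ± 0.30 (SE, edgeR adjusted p = 1.00) at 1500 µM and -0.42 ± 0.34 (SE, edgeR adjusted p = 0.998) at 200 µM. With the block the values were -0.41 ± 0.15 (edgeR unadjusted p = 0.0189, adjusted p = 0.656) and -0.47 ± 0.16 (edgeR unadjusted p = 0.0204, adjusted p = 0.811). The most abundant guide, MARCH4.7, had 147, 934 and 263 CPM at 0 µM, 59.6, 609 and 214 CPM at 200 µM and 74.6, 611 and 182 CPM at 1500 µM. It was lower in all pairs at both doses, whereas 4 of the 10 MARCH4 guides had fold changes above 0 in each comparison with 0 µM. Without MARCH4.7 the sum still had -0.33 at 1500 against 0 µM and -0.38 at 200 against 0 µM. With all guides, leaving out replicate 1 of the treated group gave -0.25 and -0.20.

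MARCH9 summed to 334, 393 and 643 CPM at 0 µM, 394, 465 and 645 CPM at 200 µM and 459, 399 and 530 CPM at 1500 µM. It was the only MARCH gene that was higher in all 3 pairs at 200 against 0 µM, where 16.8% of all genes were, and the fit gave 0.02 ± 0.37 on the log2 scale at 1500 against 0 µM (SE, edgeR adjusted p = 1.00; -0.0824 with library totals). MARCH11, best known from testis, summed to 662, 766 and 1048 CPM at 0 µM, 729, 744 and 1032 CPM at 200 µM and 751, 780 and 1124 CPM at 1500 µM. It was higher in all 3 pairs at 1500 against 0 µM, as 13.9% of all genes were, by log2 ratios of 0.18, 0.03 and 0.10, and its fold change was 0.10 ± 0.32 (SE, edgeR adjusted p = 1.00).

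MARCH5 is the mitochondrial member, which controls the turnover of mitochondrial fission and outer-membrane proteins. MARCH5 guides summed to 852, 764 and 964 CPM at 0 µM, 1011, 720 and 1020 CPM at 200 µM and 767, 532 and 879 CPM at 1500 µM. Within each number the level at 1500 µM was the lowest of the 3 doses, while at 200 µM it was higher than without drug in replicates 1 and 3 and lower in replicate 2. At 1500 against 200 µM the log2 ratios were -0.40, -0.44 and -0.21, and 8 of 10 guides had fold changes below 0, with a median of -0.41. A lower median was found in 31 of 1117 genes, and the share of genes with as many guides below 0 was not counted. In this comparison 3 MARCH5 guides were lower in all 3 same-numbered pairs, a count that 101 other genes reached or passed.

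The fold change of MARCH5 at 1500 against 200 µM was -0.33 ± 0.30 (SE, edgeR adjusted p = 0.999). It was -0.16 without replicate 2 at 1500 µM, with replicate 2 at 200 µM kept. With the block it was -0.34 ± 0.12 (edgeR unadjusted p = 0.0116, adjusted p = 0.616), and MARCH5 was the only MARCH gene at an unadjusted p under 0.05 there, against 3.85% of all genes in this direction. DESeq2 with the replicate block called it (-0.36 ± 0.11 SE, adjusted p = 0.0459), 1 of 24 genes or 2.15% of all, with 174 genes given no adjusted p. On simulated data with 200 changed genes, this kind of fit made 12 false calls in the same comparison. It recovered 98.5% of the 2-fold changes put in and 100% of the 4-fold and 8-fold ones. The number and size of those changes were set by hand, so the 12 give no share of false calls among the 24 genes. The MARCH5 call did not hold in any edgeR fit, where the lowest adjusted p of MARCH5 was the blocked one. At 1500 against 0 µM its fold change was -0.25 ± 0.31 (SE, edgeR adjusted p = 1.00), and -0.0687 without the same library.

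Among MARCH5 guides, MARCH5.2 had 18.9, 20.2 and 102 CPM at 0 µM, 44.2, 40.4 and 136 CPM at 200 µM and 9.33, 0 and 34.8 CPM at 1500 µM. All libraries at 1500 µM lay below those at 200 µM, as did 1.16% of all guides, and its log2 fold change was -2.31 ± 1.56 (SE, edgeR adjusted p = 1.00), or -1.50 without replicate 3 at 200 µM. MARCH5.9, the most abundant, had 345, 536 and 92.0 CPM at 0 µM, 269, 458 and 64.2 CPM at 200 µM and 184, 267 and 114 CPM at 1500 µM. It was lower at 1500 than at 200 µM in replicates 1 and 2 and higher in replicate 3. MARCH5.3 had 57.9, 27.9 and 57.1 CPM at 0 µM and 15.1, 21.5 and 31.1 CPM at 1500 µM, with a log2 fold change of -1.10 ± 0.80 (SE, edgeR adjusted p = 1.00). MARCH5.7 went the other way, with 14.6, 55.2 and 22.1 CPM at 0 µM, 56.5, 42.5 and 91.3 CPM at 200 µM and 76.8, 32.9 and 65.0 CPM at 1500 µM, and fold changes of 1.05 ± 0.85 at 200 µM and 0.91 ± 0.83 at 1500 µM on the log2 scale (SE, edgeR adjusted p = 1.00 for both).

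MARCH6, the human relative of yeast Doa10, works in degradation from the endoplasmic reticulum and in the control of sterol synthesis. MARCH6 summed to 824, 381 and 411 CPM at 0 µM, 718, 391 and 520 CPM at 200 µM and 500.4, 369 and 401 CPM at 1500 µM. The level at 1500 µM was the lowest in each number, by log2 ratios to 0 µM of -0.72, -0.05 and -0.04 and to 200 µM of -0.52, -0.08 and -0.37. The fold changes were -0.35 ± 0.40 (SE, edgeR adjusted p = 1.00) and -0.35 ± 0.34 (SE, edgeR adjusted p = 0.999). Without replicate 1 of the lower dose, and with replicate 1 at 1500 µM kept, they were 0.0988 and -0.11.

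The guide MARCH6.1 stood out in this gene. It had 196, 111 and 114 CPM at 0 µM, 146, 76.7 and 129 CPM at 200 µM and 66.8, 33.9 and 57.9 CPM at 1500 µM. Every library at 1500 µM lay below every other library, and among tested guides 1.27% were separated in this way at 1500 against 0 µM and 1.16% at 1500 against 200 µM. Its log2 fold change was -1.43 ± 0.65 (SE, edgeR adjusted p = 1.00) at 1500 against 0 µM, the lowest p of any MARCH guide in the 3 comparisons (unadjusted 0.0617), and -1.15 ± 0.64 (SE, edgeR adjusted p = 1.00) at 1500 against 200 µM.

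With the block the MARCH6.1 values were -1.43 ± 0.38 (edgeR unadjusted p = 0.00652) and -1.15 ± 0.36 (edgeR unadjusted p = 0.0143), with adjusted p-values that rounded to 1.00. DESeq2 with the replicate block called MARCH6.1 at 1500 against 200 µM (-1.18 ± 0.26 SE, adjusted p = 0.00993). It was 1 of 43 guides of all targets, or 0.416%, in a fit that gave 5411 guides, 59 of them MARCH guides, no adjusted p. On simulated data with 200 changed guides, this kind of fit made 48 false calls in the same comparison. It recovered 11.9%, 46.3% and 68.2% of the 2-fold, 4-fold and 8-fold changes put in. The number and size of those changes were set by hand, so the 48 give no share of false calls among the 43 guides. At 1500 against 0 µM DESeq2 with the block did not call MARCH6.1 (-1.45 ± 0.46 SE, adjusted p = 0.639). At 1500 against 200 µM 6 of the 8 tested MARCH6 guides had fold changes below 0, with a median of -0.39. A lower median was found in 38 of 1117 genes. MARCH6.1, MARCH6.3 and MARCH6.9 were lower there in each same-numbered pair, as were 11.5% of all guides. MARCH6.7 and MARCH6.10 were higher in each pair, as were 13.3%. The other MARCH6 guides with levels given here had no common direction. MARCH6.2, the most abundant, had 389, 206 and 114 CPM at 0 µM and 104, 231 and 85.6 CPM at 1500 µM, and MARCH6.5 had 183, 9.12 and 3.44 CPM at 0 µM and 232, 9.07 and 21.0 CPM at 1500 µM. The sparse guide MARCH6.10 had 77, 7 and 61 counts at 0 µM, 0, 0 and 20 counts at 200 µM and 50, 11 and 95 counts at 1500 µM, with log2 fold changes of -3.43 ± 2.21 at 200 against 0 µM and 3.10 ± 2.29 at 1500 against 200 µM (SE, edgeR adjusted p = 1.00 for both). MARCH6.9 had all libraries at 200 µM, 72.9, 72.0 and 126 CPM, above those without drug, 54.8, 37.9 and 68.4 CPM, the 1 MARCH guide separated upward there, against 1.29% of all guides.

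MARCH7, also called axotrophin, and MARCH10, known from spermatids, are the members without clear transmembrane segments. MARCH7 summed to 1330, 704 and 1053 CPM at 0 µM, 1011, 727 and 954 CPM at 200 µM and 940, 776 and 1119 CPM at 1500 µM. It had a log2 value of -0.13 ± 0.33 at 1500 against 0 µM (SE, edgeR adjusted p = 1.00), and replicate 1 carried the direction, since without that library at 0 µM the value was 0.11. MARCH7.10, its most abundant guide, held 2.60% to 32.8% of the MARCH7 counts. In that library 1 guide, MARCH7.7, held 756 CPM, against 44.2 and 83.2 CPM in the other untreated libraries and 21.5 to 124 CPM in the treated ones. Its fold changes of -2.20 ± 1.22 at 200 µM and -1.815 ± 1.24 at 1500 µM (SE, edgeR adjusted p = 1.00 for both) became 0.0424 and 0.42 without it. MARCH10 summed to 344, 805 and 554 CPM at 0 µM, 318, 722 and 541 CPM at 200 µM and 487, 703 and 532 CPM at 1500 µM. The groups overlapped, and the log2 value for 1500 against 0 µM came to 0.02 ± 0.38 (SE, edgeR adjusted p = 1.00; -0.10 with library totals). MARCH10.9 held 21.3% to 52.9% of its counts. MARCH10.8 had 36.6, 36.0 and 166 CPM at 0 µM and 26.1, 21.2 and 51.1 CPM at 200 µM, with a log2 fold change of -1.27 ± 0.91 (SE, edgeR adjusted p = 1.00) that became -0.12 without replicate 3 at 0 µM.

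Further guides were named for a low p in their direction. MARCH7.3 was higher by 1.32 ± 1.13 on the log2 scale at 1500 against 0 µM, from 7.31, 16.3 and 10.3 CPM to 24.0, 8.11 and 53.7 CPM, with overlapping groups (SE, edgeR adjusted p = 1.00), and by 0.49 without replicate 3 at 1500 µM. At 1500 against 200 µM MARCH4.2 was at 34.8, 74.4 and 27.3 against 91.0, 119 and 49.7 CPM (-0.92 ± 0.70 SE on the log2 scale, edgeR adjusted p = 1.00). MARCH2.10 was at 98.7, 125 and 23.1 against 56.1, 51.3 and 20.8 CPM (0.95 ± 0.83 SE on the log2 scale, edgeR adjusted p = 1.00). MARCH4.2 was lower and MARCH2.10 higher in each same-numbered pair, and in both the groups overlapped. The MARCH2.10 value was 0.54 without replicate 2 at 1500 µM.

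The blocked edgeR fit put 5 of 105 MARCH guides at an unadjusted p under 0.05 in the lower direction at 1500 against 0 µM, or 4.76%, against 1.78% of all guides. These were MARCH1.5, MARCH2.4, MARCH3.8, MARCH4.7 and MARCH6.1, with log2 fold changes of -0.85 ± 0.32, -2.08 ± 0.87, -1.35 ± 0.53, -0.72 ± 0.29 and -1.43 ± 0.38 (SE). MARCH1.5, MARCH3.8 and MARCH4.7 are the most abundant guides of their genes. At 200 against 0 µM there were 3 lower, MARCH1.6, MARCH4.7 and MARCH7.7, or 2.86% against 1.67%, and at 1500 against 200 µM 4 lower, MARCH2.8, MARCH5.2, MARCH5.4 and MARCH6.1, or 3.81% against 1.03%. In the same comparison MARCH4.5 was higher by 0.83 ± 0.34 (SE). In either direction the edgeR shares were 4.76%, 2.86% and 4.76% in this order of comparisons, against 2.61%, 2.23% and 1.95% of all guides. For DESeq2 with the block they were 6.67%, 6.67% and 10.5%, against 4.67%, 4.09% and 10.2%. All adjusted p-values of these edgeR fits rounded to 1.00, and the guides were named after their values were seen.

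Over the family at 1500 against 0 µM, 7 of 11 genes had a fold change below 0, with a median of -0.13 on the log2 scale, against 55.2% of all genes and a median of -0.03. Library totals moved the median of all genes to -0.13 and put 10 of 11 MARCH genes below 0. MARCH1, MARCH4, MARCH5 and MARCH6 were lower in all 3 same-numbered pairs, 4 of 11, where 10.6% of all genes were, and MARCH11 was the 1 gene higher in all pairs, against 13.9%. No MARCH gene had groups that did not overlap, where 0.895% of all genes were separated downward and 1.43% upward at 1500 against 0 µM, 0.537% and 1.43% at 200 against 0 µM and 0.358% and 0.537% at 1500 against 200 µM. At 200 against 0 µM 8 of 11 genes lay below 0 with a median of -0.01, against 56.1% of all genes and a median of -0.03. With library totals 5 of 11 lay below 0 and the median turned to 0.0422 (all genes 0.0224), and with the block 6 of 11 lay below 0. In this comparison 3 of 11, MARCH1, MARCH4 and MARCH10, were lower in all pairs, against 12.6% of all genes. At 1500 against 200 µM the median was 0.02 (all genes -0.01), and 3 of 11, MARCH5, MARCH6 and MARCH8, were lower in all pairs, against 15.2%, and MARCH11 was higher in all, against 12.7%. Library totals put all 11 genes below 0 there, with the median of all genes at -0.15. These comparisons share libraries, so their counts are not separate support for each other.

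Among the 105 tested MARCH guides, 66 had a fold change below 0 at 1500 against 0 µM, with a median of -0.19 on the log2 scale, against 56.1% of all tested guides and a median of -0.08. The numbers were 68 and -0.24 at 200 against 0 µM (all guides 57.5% and -0.09), and 57 and -0.06 at 1500 against 200 µM (all guides 49.2% and 0.01), where the block turned the sign of the median to 0.12 (all guides 0.05).

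The guide counts in pairs differed from the background mainly at 200 against 0 µM. Of 105 tested MARCH guides, 31 were lower at 200 µM in all 3 same-numbered pairs, or 29.5%, against 13.8% of all tested guides, and 6 were higher in all pairs, or 5.71%, against 10.1%. They lay in every MARCH gene, with 7 in MARCH1, 4 each in MARCH2, MARCH3 and MARCH11, 3 in MARCH7, 2 each in MARCH4, MARCH6 and MARCH9 and 1 each in MARCH5, MARCH8 and MARCH10. The count of higher guides was 11, or 10.5%, with library totals (background 15.5%) and with the TMM factors of the summed genes (14.2%). The count of lower guides was 29 with RLE size factors (background 13.8%), 21 with the TMM factors of the summed genes (9.65%) and 20 with library totals (8.46%). Over only 2 of the numbers, 38 to 43 guides were lower, or 36.2% to 41.0%, against 24.9% to 26.7% of all guides. Guides against 1 gene and guides in 1 library share their source, so this is a description without a test.

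Counts of 0 among MARCH guides were also most frequent at 200 µM within each replicate number. Of 110 MARCH guides, 6, 10 and 5 had no count in replicates 1, 2 and 3 of the untreated group. At 200 µM 21, 15 and 12 had none, and at 1500 µM 16, 9 and 8. Over all guides the share at 0 was 12.6%, 11.1% and 10.0% without drug, 15.2%, 12.7% and 14.0% at 200 µM and 13.8%, 11.5% and 10.6% at 1500 µM. Among the 31 guides, 13 were at 0 in at least 1 library at 200 µM, against 17 of the 74 other tested ones. A 0 at 200 µM makes a pair lower wherever the untreated count is above 0. The rule that picked the 31 guides thus favours guides with such zeros, and the 2 shares are no separate support. The part of the zeros in the count of 31 was not tested.

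Separation of whole groups was rare. MARCH6.1 was the 1 MARCH guide below all untreated libraries at 1500 µM, with none above them (background 1.42%), and no MARCH guide was below them at 200 µM (1.12%). At 1500 against 200 µM MARCH5.2, MARCH6.1 and MARCH6.3 were separated downward, or 3 of 105 against the 1.16% given above.

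At 1500 against 0 µM, 14 of 105 MARCH guides were lower in all pairs, or 13.3%, against 12.6% of all guides, and 5 were higher, or 4.76%, against 12.1%. The higher ones were MARCH1.10, MARCH7.9, MARCH8.2, MARCH9.7 and MARCH11.3, named after their values were seen. With the TMM factors of the summed genes 11 were higher, or 10.5%, against 16.6% of all guides. At 1500 against 200 µM 13 were lower (12.4% against 11.5%) and 15 higher (14.3% against 13.3%), close to the background. MARCH11.3 was the 1 guide with all libraries at 1500 µM, 89.4, 68.2 and 140 CPM, above all those at 200 µM, 47.3, 59.6 and 46.2 CPM, as 1.53% of all guides were. Its log2 fold change was 0.97 ± 0.61 (SE, edgeR adjusted p = 1.00), or 0.63 without replicate 3 at 1500 µM.

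Genes that act beside the MARCH proteins gave no calls. Of 41 other ligases that sit in membranes, all measured, none passed edgeR's test on summed counts in any comparison in either direction, with or without the block, and 23, 22 and 21 had fold changes below 0 at 1500 against 0, 200 against 0 and 1500 against 200 µM. The medians were -0.03, -0.03 and -0.0054 on the log2 scale, against -0.03, -0.03 and -0.01 over all genes. The lowest p in the 2 comparisons with 0 µM belonged to RNF149, a transmembrane ligase, with -1.08 ± 0.60 (SE, edgeR adjusted p = 1.00) and -1.02 ± 0.62 (SE, edgeR adjusted p = 0.998). Of 15 listed ubiquitin-conjugating enzymes and helpers that work with membrane or MARCH ligases, 14 were measured and none passed, with 7, 7 and 9 below 0 and medians of 0.0093, 0.05 and -0.05. Among them UBE2L3, an enzyme for several ligase classes, had -0.42 ± 0.42 (SE, edgeR adjusted p = 1.00) at 1500 against 0 µM. In the other direction UBE2D4 had 0.34 ± 0.37 (SE, edgeR adjusted p = 0.999) at 1500 against 200 µM, UBE2N 0.54 ± 0.89 (SE, edgeR adjusted p = 0.998) at 200 against 0 µM and RNF167, a ligase of endosomes and lysosomes, 0.31 ± 0.29 (SE, edgeR adjusted p = 1.00) at 1500 against 0 µM.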

How the data were processed

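The submitters' processing notes name cutadapt 1.18, MAGeCK 0.5.8 and the build hg19, without settings. The deposited values are unnormalized sgRNA counts, whole numbers in 9 libraries, and were used unchanged. Guide sequences and coordinates were not used here.

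Guides that reached 10 counts in 3 or more libraries were tested with edgeR 4.0.16 (TMM, robust quasi-likelihood fit, R 4.3.3) on the 6 libraries of each pair of doses, and so were counts summed per gene, with Benjamini-Hochberg adjustment over all features and a threshold of 0.05. An SE was taken as the size of the log2 fold change divided by the root of F, which is approximate near 0 counts. Alternatives were DESeq2 1.42.0, blocks, all 9 libraries, other scalings and filters, omitted top guides and omitted libraries. A fit with an omitted library had no block and kept the same-numbered library of the other dose. Fits were tested on simulated data. There the unblocked guide fits in edgeR recovered none of the changes put in. The unblocked gene fits in edgeR recovered 2.99% to 19.4% of 2-fold changes and most 4-fold ones. The blocked fits recovered nearly all for genes but missed many for guides. The blocked fits also made false calls, for guides more often in DESeq2 than in edgeR.

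Deviations from dose means correlated at 0.67 to 0.78 in 9 same-numbered pairs of libraries across tested guides. As these were above 0.1 in every pair, same-numbered libraries were treated as pairs in the blocked fits and the counts by pairs. This rests on the data and not the labels. The main edgeR test used dose only and left this pairing out.

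All MARCH genes were named, with the most abundant guides, up to 3 guides per direction of lowest p in each comparison, and 2 lists of other genes, from which some of lowest p are given. The family and the lists were chosen with earlier results of these data known, and the members were then found by name. Counts by pairs were chosen after seeing the data.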

Additional observations from a re-analysis of the deposited data

How the results depend on the processing

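No MARCH gene or guide passed in edgeR under any alternative. DESeq2 with the replicate block called 1 guide, MARCH6.1, and 1 gene, MARCH5, at 1500 against 200 µM; the cause was not tested. The replicate block in edgeR changed no MARCH call (MARCH1 at 1500 against 0 µM, -0.59). Library totals, used for the counts by pairs only after seeing the data, lowered the guides below 0 µM in all pairs at 200 µM from 31 to 20. The share of all guides fell with it, from 13.8% to 8.46%. The MARCH count was 21 to 31 under the other added scalings and the absent filter. Of 294 fold changes under other settings, 285 kept sign and call. These covered all MARCH genes at 1500 against 0 µM, but only MARCH1 and MARCH4 at 200 against 0 µM. At 1500 against 200 µM they covered only MARCH5 and MARCH6, and the rest were guides of low p. Turns of sign outside this set were not counted, such as MARCH6 at 200 against 0 µM (-0.01, and 0.04 with the block in edgeR). At 1500 against 0 µM MARCH8 turned to 0.0199 in edgeR with the replicate block, 0.0149 with all 9 libraries and the block and 0.0075 in DESeq2 with it. Library totals gave -0.0870 for MARCH2, -0.0824 for MARCH9 and -0.10 for MARCH10, and MARCH2 without its top guide had -0.0585. With a library left out, 178 of 198 kept sign. The same-numbered library of the other dose stayed in these unblocked fits, so differences between replicate numbers enter the values. The ranges at 1500 against 0 µM were -0.18 to 0.31 for MARCH2, -0.95 to 0.59 for MARCH3, -0.57 to 0.10 for MARCH6, -0.36 to 0.11 for MARCH7, -0.43 to 0.50 for MARCH8, -0.16 to 0.35 for MARCH9, -0.24 to 0.33 for MARCH10, -0.11 to 0.31 for MARCH11 and -2.33 to 0.42 for MARCH7.7. At 200 against 0 µM they were -1.20 to 0.0405 for MARCH1 and -2.75 to 0.0424 for MARCH7.7. Guides near 0 counts have only approximate errors.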

Other observations

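Several sparse MARCH guides had counts in some libraries and none in others. MARCH3.7 had 0, 7 and 0 counts in replicates 1, 2 and 3 at 0 µM, 10, 0 and 74 counts at 200 µM and 0, 37 and 30 counts at 1500 µM. Its log2 fold changes against 0 µM were 3.15 ± 2.67 at 200 µM and 3.07 ± 2.59 at 1500 µM (SE, edgeR adjusted p = 1.00 for both), and the first was 0.93 without replicate 3 at 200 µM. MARCH6.8 had 0, 0 and 4 counts at 0 µM, 0, 42 and 13 counts at 200 µM and 0, 19 and 0 counts at 1500 µM, with a log2 fold change of 3.54 ± 2.69 at 200 against 0 µM (SE, edgeR adjusted p = 1.00), or 1.76 without replicate 2 at 200 µM. MARCH2.4 had 6, 457 and 11 counts at 0 µM, 0, 270 and 0 counts at 200 µM and 0, 285 and 1 counts at 1500 µM.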
